A study of Mus musculus with 12 samples.

Results

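GABA-A receptors are chloride channels opened by GABA, the main inhibitory transmitter of the cortex, and 7 of their subunit genes were followed here in RNA sequencing of mouse cortex. The 7 genes, Gabra2, Gabra3, Gabra4, Gabra5, Gabrb1, Gabrb2 and Gabrd, were taken by gene symbol from a table of 27179 genes. All 7 passed the low-count filter that left 15298 genes to be tested. A receptor is built from alpha and beta subunits, which together form the GABA binding sites, and usually a gamma or delta subunit. Receptors with a gamma subunit sit mostly at synapses and carry fast inhibition. Receptors with a delta subunit, and many with alpha 5, lie outside the synapse and carry a slower, tonic inhibition.

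The 12 libraries fall into 3 groups of 4. The KO animals (Grn-/-) lack mouse progranulin, a secreted protein delivered to lysosomes. The MUT animals (Grn-/-;GRNmEx5) lack mouse progranulin too and are humanized mutants, described as progranulin-deficient, that carry GRNmEx5. The human gene itself was not analysed here. The WT animals (Grn+/+) have the mouse gene intact. Ages were 308, 282, 282 and 282 days in KO, 287, 272, 309 and 282 days in MUT, and 287, 375, 375 and 375 days in WT. By label, 2 KO, 1 MUT and 3 WT libraries are male and 2 KO, 3 MUT and 1 WT are female. Strain is not given in the sources used here, and the labels do not say that each library came from its own animal. The p values therefore rest on the spread among libraries. Libraries that differ in age or labelled sex come from different animals, which covers all 4 in MUT. KO or WT libraries that share both may not, so part of the spread may be technical.

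Library totals ran between 16381221 and 20782195 counts. Grn was at 10.8 to 13.96 CPM (counts relative to the TMM-scaled library total) in KO, at 11.5 to 15.3 CPM in MUT and at 57.0 to 59.9 CPM in WT, so the targeted gene followed the labels. Xist and Ddx3y went against the labelled sex in every library, with the same split into 6 and 6 libraries either way, so a model term for sex is identical under either naming. WT replicates 2, 3 and 4, the 375-day animals, stood apart in their tissue markers. The mean level of 17 striatal projection neuron genes, on a log2 scale centred on the 12 libraries, was -0.72 to 0.10 in KO, -0.66 to -0.34 in MUT and 0.71 to 2.33 in those 3 WT libraries, with WT replicate 1 at -0.71. Hippocampal neuron genes (13 tested) were at -0.13 to 0.83 in KO, -0.46 to 1.02 in MUT, -1.09 to -0.82 in the same 3 WT libraries and 0.035 in WT replicate 1. Choroid plexus genes were high in KO replicate 3, MUT replicate 1 and WT replicate 4, where transthyretin (Ttr) reached 1838, 1283 and 597 CPM, against at most 42.7 CPM elsewhere. Markers of cortical neurons were present throughout, but they do not separate cortex from hippocampus in every case. Slc17a7, a vesicular glutamate transporter of excitatory neurons in both regions, was at 1392 to 1643 CPM in KO, 1262 to 1590 CPM in MUT and 1479 to 1792 CPM in WT. In bulk tissue, fewer cells of a type and less RNA per cell cannot be told apart.

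Gabra2, Gabra4 and Gabrb1 lie near each other, and the other 4 genes lie on a chromosome each. On mm10 chromosome 5, Gabra2 (Entrez 14395) spans 70961057 to 71095849 on the minus strand, and Gabra4 (Entrez 14397) spans 71569734 to 71658308 on the minus strand. Gabrb1 (Entrez 14400) follows at 71700016 to 72137244 on the plus strand. Gabrb2 (Entrez 14401) lies on chromosome 11 at 42419757 to 42632591, plus strand. Gabra5 (Entrez 110886) lies on chromosome 7 at 57407669 to 57510009, minus strand. Gabra3 (Entrez 14396) lies on chromosome X at 72432676 to 72656246, minus strand, and Gabrd (Entrez 14403) on chromosome 4 at 155384979 to 155398069, minus strand. Counts were summed over 9 or 10 exons per gene. Among the 7, Gabra5 was the gene whose counted exons met those of another gene, with 148 bases inside the predicted gene Gm9962. In GENCODE's principal transcripts the longest run of identical bases that a member shared with any of the 18 other subunits was 34 bases (Gabra2 with Gabrg3), and 20 to 25 bases for the other 6.

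The alpha subunits differ at a residue that sets their pharmacology, and the coding sequence around it is shown because it separates Gabra4 from the other 3 alpha members. Receptors with alpha 2, alpha 3 or alpha 5 carry a histidine there and bind classical benzodiazepines such as diazepam. Receptors with alpha 4 carry an arginine and do not. The capitals mark that codon in 33 coding bases of each gene, read 5′ to 3′ on the coding strand from GENCODE transcripts on GRCm38:
Gabra2 (chr5:71014490-71014522, minus strand): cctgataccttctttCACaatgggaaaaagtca
Gabra3 (chrX:72501153-72501185, minus strand): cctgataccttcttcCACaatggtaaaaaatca
Gabra4 (chr5:71641137-71641169, minus strand): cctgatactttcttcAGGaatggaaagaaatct
Gabra5 (chr7:57488876-57488908, minus strand): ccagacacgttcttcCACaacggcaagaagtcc
Gabra2, Gabra3 and Gabra5 share the codon CAC and Gabra4 has AGG.

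Promoter sequences are shown for Gabrb2 and Gabra2, the subunits on which the comparison of KO with WT turns. Each window holds 250 bases before the RefSeq start site and 50 after it (GRCm38.p6), and 6 of the 7 genes had at least 1 window (10 windows in all). The motifs searched, on both strands, were the TATA box as TATAAA, the box bound by NF-Y as CCAAT, the GC box as GGGCGG, part of the cyclic AMP response element as TGACG, and the EGR site as GCGNGGGCG. The capitals mark every match.
Gabrb2 (chr11:42420190-42420489, plus strand): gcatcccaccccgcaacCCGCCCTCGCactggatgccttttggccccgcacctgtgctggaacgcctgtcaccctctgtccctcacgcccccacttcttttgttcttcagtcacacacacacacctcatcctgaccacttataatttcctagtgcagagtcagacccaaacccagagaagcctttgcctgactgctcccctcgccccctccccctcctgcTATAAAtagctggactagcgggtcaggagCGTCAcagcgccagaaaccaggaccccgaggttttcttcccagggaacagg
Gabra2 (chr5:71095800-71096099, minus strand): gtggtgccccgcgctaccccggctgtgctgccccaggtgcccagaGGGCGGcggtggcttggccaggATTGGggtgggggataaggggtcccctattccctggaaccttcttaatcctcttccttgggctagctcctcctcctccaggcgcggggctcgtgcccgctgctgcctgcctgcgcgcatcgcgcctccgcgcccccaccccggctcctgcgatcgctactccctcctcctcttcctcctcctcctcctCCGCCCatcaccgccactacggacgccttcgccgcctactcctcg
The first Gabrb2 window held TATAAA 30 bases before the start, with TGACG on the minus strand after it and a GC box that overlaps an EGR match further upstream. The Gabra2 window was 70.0% G and C, with GC boxes and an inverted CCAAT box and no TATAAA. Of all 32851 windows in the RefSeq table, 13.6% held TATAAA, 37.4% CCAAT, 35.7% GGGCGG, 20.8% TGACG and 5.55% GCGNGGGCG. A match describes the letters of the window and is not evidence of binding.

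Levels were set beside each other per length, as RPKM, the TMM-scaled CPM divided by the counted exon length in kilobases. Over the 12 libraries Gabrb2 came first at 40.5 ± 5.02 RPKM (SD), then Gabra3 at 39.1 ± 4.62, Gabrd at 35.1 ± 6.76, Gabra5 at 28.2 ± 6.29, Gabra4 at 26.6 ± 3.72, Gabra2 at 17.1 ± 3.41 and Gabrb1 at 9.80 ± 1.21. The ranges of every pair of neighbours in this order overlapped. Gabra4 was above Gabra2, and Gabra2 above Gabrb1, in 12 of 12 libraries, while Gabrb2 was above Gabra3 in 8 of 12. The order rests on the lengths in the table. Those cover 1860 bases of Gabrb1 and 2392 bases of Gabra2, where GENCODE's principal transcripts have 13737 and 5852 bases, and 7552 bases of Gabrb2, against 3989 in GENCODE.

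Relative to the level, Gabra5 varied most between libraries, with a coefficient of variation of 22.3%, followed by Gabra2 at 19.9% and Gabrd at 19.3%. Gabra4 varied by 14%, Gabrb2 by 12.4%, Gabrb1 by 12.3% and Gabra3 by 11.8%. Gabra3 and Gabra4 had the most similar profiles of any pair of members, with a root mean square difference of 0.105 on the centred log2 CPM scale over 12 libraries. Gabra5 and Gabrd had the least similar, at 0.51.

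**Figure D1:**
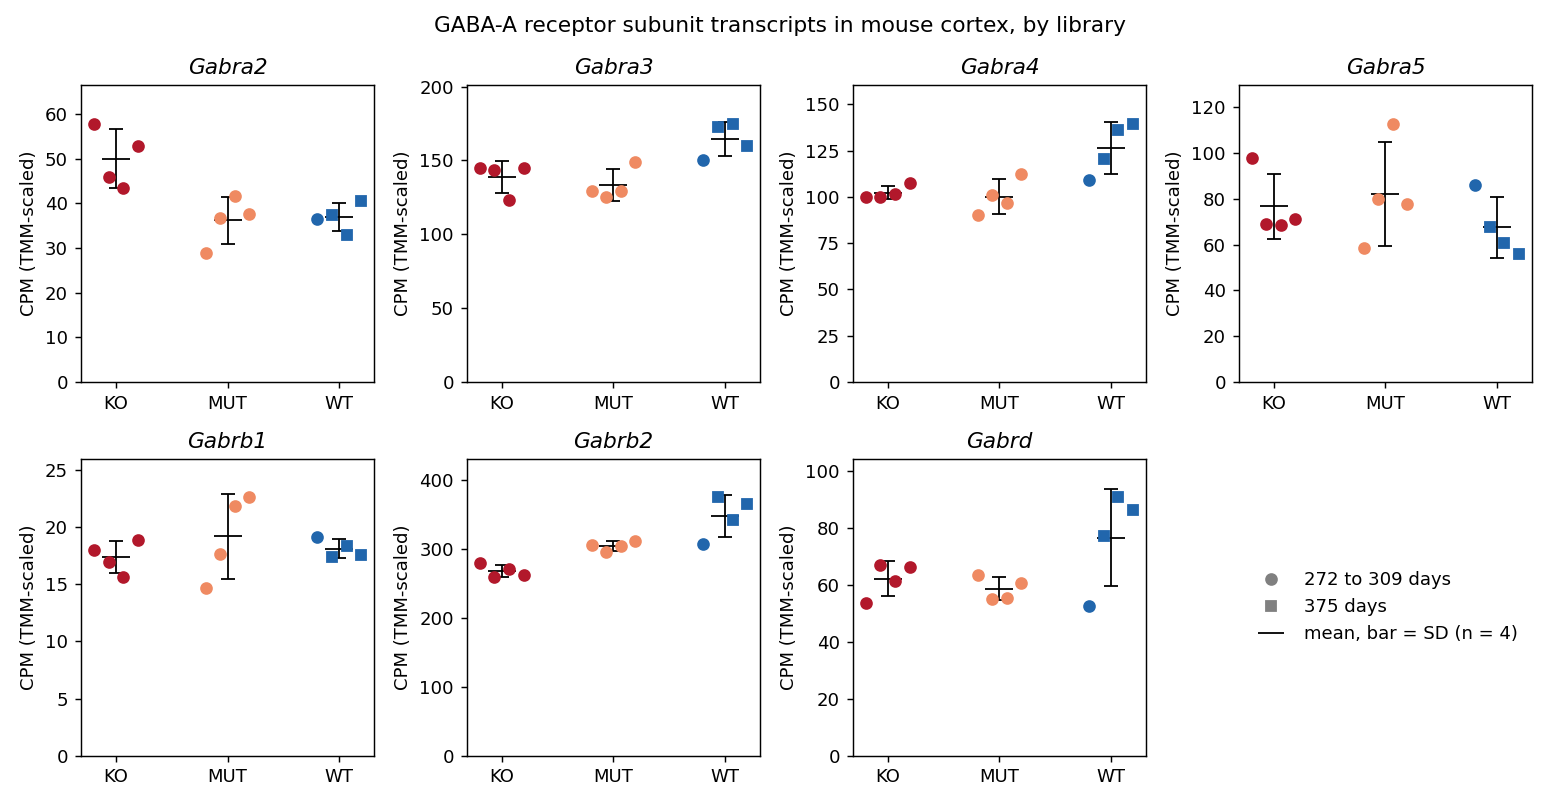
Each panel gives the TMM-scaled CPM of a subunit transcript in the 12 libraries, by group (KO, MUT, WT), with a black mark for the mean and a bar for the SD (n = 4). Squares are the 375-day animals, all of them WT. Gabrb2 lies lowest in KO, Gabra2 highest in KO, and Gabrd is high in the 3 squares.

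KO was set against WT first. All 375-day libraries are WT, and they also differ from the KO libraries in striatal and hippocampal marker levels. Loss of progranulin therefore cannot be told apart here from age and tissue. Gabrb2, the beta 2 subunit of the most abundant synaptic receptor type of the adult cortex, was lower in KO. Gabrb2 was the single member past an adjusted p of 0.05, 1 of 7, lower, where 0.346% of all tested genes were called lower, 0.144% higher and 0.49% in either direction. In KO libraries Gabrb2 measured 279, 259, 271 and 261 CPM, against 306, 374, 341 and 365 CPM in WT libraries. The highest KO library lay below the lowest WT library, and the lowest WT library was replicate 1, the younger animal. The mean was 267 ± 9.26 CPM in KO and 347 ± 30.3 CPM in WT (SD, n = 4 each), a log2 fold change of -0.35 (SE 0.06, 95% interval -0.47 to -0.23, edgeR adjusted p = 0.0299). The direction held in all 29 other settings and the call in 13 of them.

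The Gabrb2 call ended, with values of -0.37 to -0.32, without KO replicate 1, 2 or 3, without MUT replicate 2, 3 or 4, and without WT replicate 2 or 4. It also ended at -0.18 with age as a term, at -0.29 with the striatal level, at -0.30 with the hippocampal level, at -0.28 with the length trend removed, and at -0.20 in animals under 310 days, where WT replicate 1 is the only WT library and is assumed to vary like the other groups. The 12 oligodendrocyte genes had a median log2 fold change of 0.29 in the same comparison, with none called, and their part in the difference was not tested.

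Gabrb1, the beta 1 subunit, did not pass the test. Its KO libraries had 17.95, 17.0, 15.6 and 18.9 CPM and its WT libraries 19.1, 17.4, 18.4 and 17.5 CPM. The groups overlapped, and the log2 fold change was -0.05 (95% interval -0.31 to 0.21, edgeR adjusted p = 0.877).

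Among the alpha subunits, Gabra2 gave the only positive difference whose libraries did not overlap. Gabra2, the alpha 2 subunit found at the axon initial segment of pyramidal cells, measured 57.8, 45.9, 43.5 and 52.8 CPM in KO, against 36.6, 37.4, 33.0 and 40.6 CPM in WT. All 4 KO libraries were above all 4 WT libraries. The log2 fold change was 0.47 (SE 0.11, 95% interval 0.23 to 0.71) and did not pass over all genes (edgeR adjusted p = 0.0775). It was called by DESeq2 (0.47, adjusted p = 0.00603), which called 647 genes in all, against 75 in the main fit. It was also called by edgeR without WT replicate 1 (0.53, adjusted p = 0.0327), where 1619 genes were called in all. The log2 fold change was above 0 in 29 of 29 other settings, with the lowest value, 0.29, when the hippocampal level was a term. That lowest value did not pass (edgeR adjusted p = 0.473).

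Gabra3 and Gabra4 were lower in all 4 KO libraries than in any WT library, and neither passed the test. Gabra3, the alpha 3 subunit, had 145, 144, 123 and 145 CPM in KO and 150.0, 173, 175 and 159.7 CPM in WT (log2 fold change -0.22, edgeR adjusted p = 0.136). Gabra4, the alpha 4 subunit that partners delta in extrasynaptic receptors, had 99.8, 100.1, 101 and 107 CPM in KO and 109, 120.3, 136 and 139.6 CPM in WT (-0.30, edgeR adjusted p = 0.105). WT replicate 1 was the lowest WT library for both. Gabra4 was called without WT replicate 1 (-0.40, edgeR adjusted p = 0.00839) and by DESeq2 (-0.30, adjusted p = 0.0289). Those settings called 1619 and 647 genes in all, against 75 in the main fit. Among libraries labelled male Gabra4 was at -0.40 (2 KO and 3 WT libraries). It was at -0.066 in animals under 310 days and at -0.15 with the striatal level as a term.

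For the extrasynaptic members Gabrd and Gabra5, WT replicate 1 lay on the opposite side of the 375-day WT animals in each case, below them for Gabrd and above them for Gabra5. Gabrd, the delta subunit, measured 53.7, 67.0, 61.6 and 66.5 CPM in KO and 52.5, 77.1, 90.8 and 86.4 CPM in WT. WT replicate 1 was the lowest and WT replicates 2, 3 and 4 the highest of all 12 libraries. Its log2 fold change was -0.26 (95% interval -0.59 to 0.07, edgeR adjusted p = 0.402). It was -0.50 without WT replicate 1 (edgeR adjusted p = 0.00586), where 1619 genes were called in all, against 75 in the main fit. The log2 fold change turned to 0.29 under 310 days and to 0.042 with the striatal level as a term, neither past the threshold. Gabra5, the alpha 5 subunit that is most abundant in the hippocampus, measured 98.0, 69.0, 68.5 and 71.3 CPM in KO and 86.0, 67.5, 60.6 and 55.7 CPM in WT. The groups overlapped, with a log2 fold change of 0.21 (edgeR adjusted p = 0.659). It was 0.066 without KO replicate 1, 0.12 without WT replicate 4 and 0.54 without WT replicate 1. It turned to -0.38 under 310 days and to -0.29 with the hippocampal level as a term.

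Across the 7 genes, 3 were lower and 1 higher in KO with no overlap of libraries, against 4.82% and 4.29% of all tested genes (9.11% in either direction). The median log2 fold change of the 7 was -0.22, against 0.0050 over all tested genes. It was -0.14 without KO replicate 1, -0.14 with age as a term and -0.13 under 310 days. At an unadjusted p below 0.05 the same comparison had 3 members lower and 1 higher, against 9.71% and 7.92% of all tested genes.

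**Figure D2:**
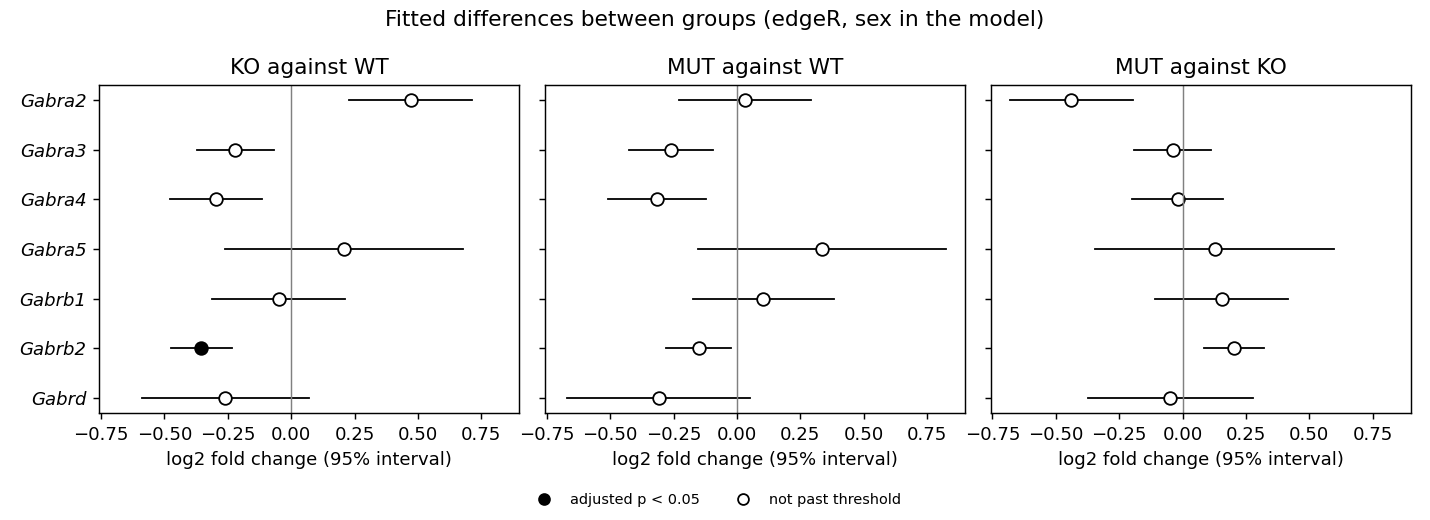
Points are the fitted log2 fold changes of the 7 subunits in the 3 comparisons, with 95% intervals as lines, and filled points passed an edgeR adjusted p of 0.05. Gabrb2 in KO against WT, at -0.35, is the one filled point, and Gabra2 sits at 0.47 against WT and at -0.44 when MUT is set against KO.

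The humanized mutant was compared with the same WT libraries, so this comparison shares its controls with the one above. Genotype again cannot be told apart from the age and tissue of those controls. No member passed in MUT by edgeR, DESeq2 or limma-voom (0 of 7 each), where edgeR called 0.0131% of all tested genes. At an unadjusted p below 0.05 edgeR had 3 members lower and 0 higher, against 6.01% and 4.85% of all tested genes. Gabrb2 measured 305, 295, 304 and 311 CPM in MUT, against 306, 374, 341 and 365 CPM in WT. MUT replicates 1, 2 and 3 lay below every WT library, and MUT replicate 4 lay above WT replicate 1. The log2 fold change was -0.15 (SE 0.06, 95% interval -0.28 to -0.02, edgeR adjusted p = 0.417), and -0.02 in animals under 310 days.

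Gabra3 was the member whose MUT and WT libraries did not overlap, 1 of 7 and lower, where 3.71% of all tested genes were (7.09% in either direction). It measured 129.6, 125, 129 and 149 CPM in MUT, against 150.0, 173, 175 and 159.7 CPM in WT (log2 fold change -0.26, edgeR adjusted p = 0.392). Gabra4 measured 90.4, 101, 96.9 and 112 CPM in MUT, against 109, 120.3, 136 and 139.6 CPM in WT (-0.32, edgeR adjusted p = 0.385). MUT replicate 4 lay above WT replicate 1. Gabrd measured 63.7, 55.3, 55.3 and 60.7 CPM in MUT, against 52.5, 77.1, 90.8 and 86.4 CPM in WT (-0.31, edgeR adjusted p = 0.519). The MUT libraries lay between WT replicate 1 and the other 3 WT libraries.

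For Gabra2 the MUT and WT libraries overlapped. It measured 28.8, 36.7, 41.5 and 37.5 CPM in MUT, and 36.6, 37.4, 33.0 and 40.6 CPM in WT, a log2 fold change of 0.03 (95% interval -0.23 to 0.29, edgeR adjusted p = 0.939). Gabra5 ranged more widely in MUT than in any other group, with 58.3, 79.8, 113 and 77.7 CPM, against 86.0, 67.5, 60.6 and 55.7 CPM in WT (0.34, edgeR adjusted p = 0.605). That value was 0.040 without MUT replicate 3, the highest library, and 0.72 without WT replicate 1. Gabrb1 measured 14.7, 17.7, 21.8 and 22.6 CPM in MUT, against 19.1, 17.4, 18.4 and 17.5 CPM in WT (0.10, edgeR adjusted p = 0.795). MUT replicate 1, which was high in choroid plexus genes, was the lowest of the 12 libraries for Gabra2, Gabra4 and Gabrb1. WT replicate 4, also high in those genes, was the highest of the 12 for Gabra4 and the highest WT library for Gabra2. KO replicate 3, high in them too, was the lowest KO library for Gabra2 and Gabrb1 but not for Gabra4.

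Without WT replicate 1, Gabra4 (-0.45, edgeR adjusted p = 0.0123), Gabrb2 (-0.24, edgeR adjusted p = 0.0356) and Gabrd (-0.60, edgeR adjusted p = 0.00508) were called lower in MUT. That fit sets MUT against the 375-day WT animals alone, and called 1030 genes in all. Under 310 days the same 3 values were -0.11, -0.02 and 0.19, and none passed. WT replicate 1 differs from the other WT libraries in age, labelled sex and both marker levels at once, so these cannot be told apart.

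**Figure D3:**
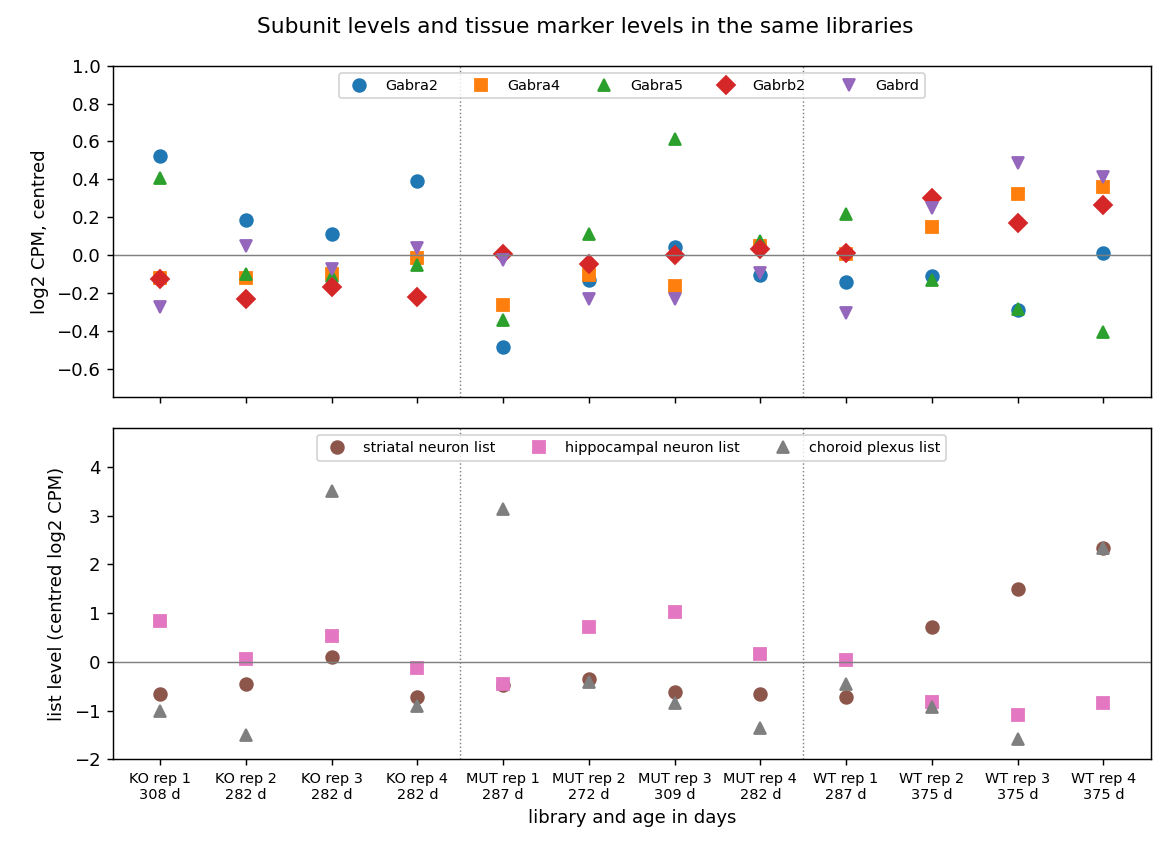
The upper panel gives log2 CPM of 5 subunits, centred on their mean over the 12 libraries, and the lower panel the level of 3 tissue marker lists in the same libraries, with each animal's age on the axis. In WT replicates 2, 3 and 4, where the striatal list is high, Gabrd, Gabra4 and Gabrb2 lie above 0 and Gabra5 below it.

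The pair of null groups was then set against each other, which involves no WT library in the contrast itself. No member passed in MUT against KO by edgeR, DESeq2 or limma-voom (0 of 7 each), where edgeR called 0.00654% of all tested genes. At an unadjusted p below 0.05 edgeR had 1 member lower and 1 higher, against 2.12% and 3.57% of all tested genes (5.69% in either direction). Gabra2 was lower in MUT, with 28.8, 36.7, 41.5 and 37.5 CPM, against 57.8, 45.9, 43.5 and 52.8 CPM in KO. The libraries did not overlap, which held for 1.85% of all tested genes in that direction and 5.22% in either. The log2 fold change was -0.44 (SE 0.11, 95% interval -0.68 to -0.20, edgeR adjusted p = 0.716), and it lay between -0.51 and -0.32 in all 29 other settings.

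Gabrb2 was higher in MUT than in KO, with 305, 295, 304 and 311 CPM against 279, 259, 271 and 261 CPM and no overlap, as held for 3.37% of all tested genes. Its log2 fold change was 0.20 (SE 0.05, 95% interval 0.08 to 0.32, edgeR adjusted p = 0.716), with 0.15 to 0.24 in the other settings. The intervals of the other 5 members all held 0, from Gabra4 at -0.02 (-0.20 to 0.16) to Gabrb1 at 0.15 (-0.11 to 0.42).

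**Figure D4:**
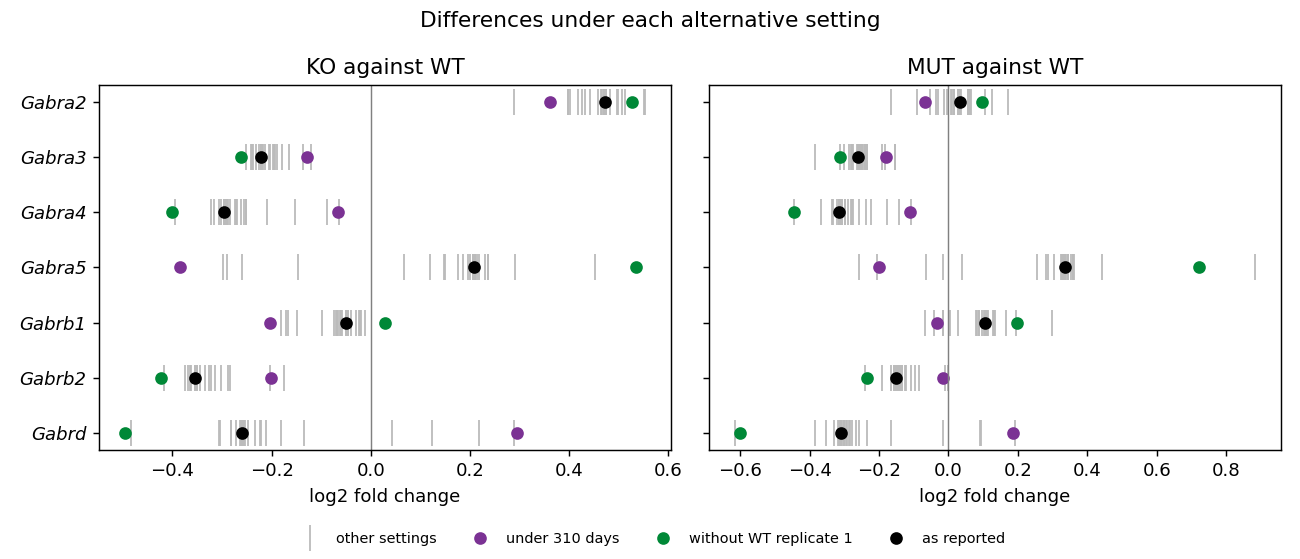
Each row gives the log2 fold change of a subunit in KO against WT (left) and in MUT against WT (right) as reported (black) and in the other settings (grey ticks), with animals under 310 days in purple and the fit without WT replicate 1 in green. Gabrb2 stays below 0 and Gabra2 above 0 in KO, while Gabra5 and Gabrd change sign between the purple and the green points.

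The make-up of the receptor subunits was described as a share of summed RPKM, with no test. Of the sum over the 4 alpha members, Gabra2 made up 18.7 ± 0.932% in KO, 14.2 ± 0.728% in MUT and 13.4 ± 1.21% in WT (SD, n = 4). The KO libraries ran between 17.8% and 19.5%, above the MUT range of 13.3% to 14.9% and the WT range of 11.8% to 14.8%. Gabra3 held the main share of the 4, with 33.5 ± 1.90% in KO, 34.0 ± 3.87% in MUT and 38.2 ± 2.33% in WT. Among the beta subunits Gabrb2 made up 37.2 ± 1.25% in KO, 39.2 ± 2.77% in MUT and 41.0 ± 2.25% in WT, and Gabrb1 9.80 ± 0.737% in KO, 9.94 ± 1.27% in MUT and 8.73 ± 0.694% in WT.

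**Figure D5:**
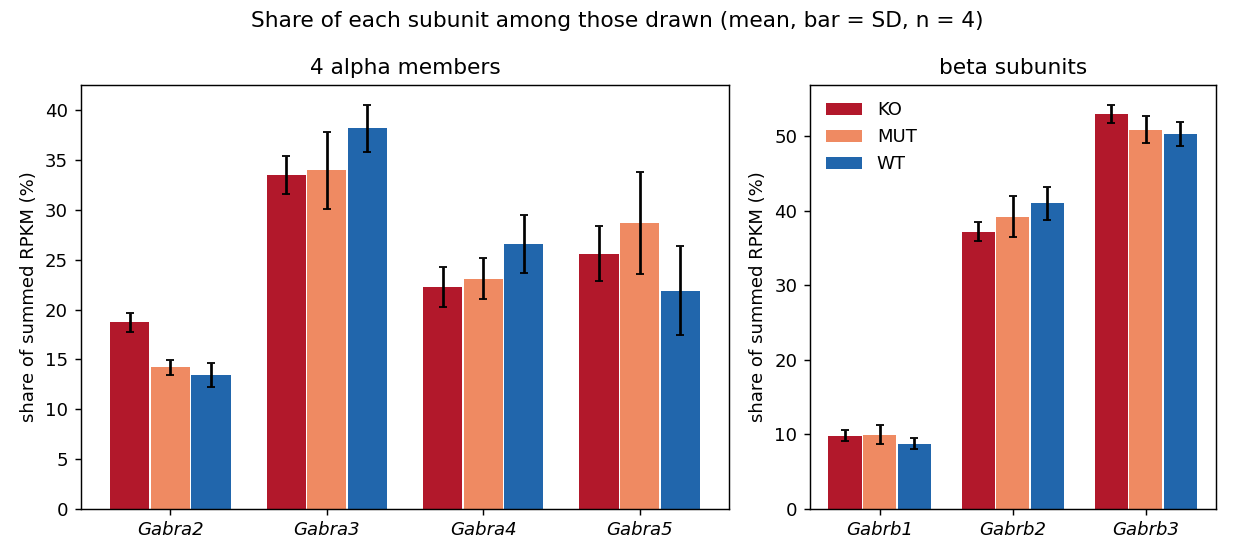
Bars give the mean share of each subunit in the summed RPKM of the 4 alpha members (left) and of the beta subunits (right), by group (KO, MUT, WT), with SD bars (n = 4). Gabra2 takes 18.7% of the alpha members' sum in KO, 14.2% in MUT and 13.4% in WT.

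The remaining subunit genes were read from the same fit. Of 12 listed, 7 passed the low-count filter and edgeR called none in any comparison. At an unadjusted p below 0.05, 1 was higher and 2 lower in KO against WT, against 7.92% and 9.71% of all tested genes. In MUT, 1 was higher against WT (4.85% of all tested genes) and 1 higher against KO (3.57%). The list had medians of -0.20 in KO against WT, -0.07 in MUT against WT and 0.08 in MUT against KO (all tested genes 0.0050, 0.0040 and -0.0040). Gabrr2, a rho subunit best known from retina, had 20 to 37 counts in KO, 18 to 63 in MUT and 5 to 18 in WT, and its log2 fold changes were 1.23 in KO (edgeR adjusted p = 0.163) and 1.37 in MUT (edgeR adjusted p = 0.395). Gabrg3, a gamma subunit, was at 2.31 to 3.38 CPM in MUT and 1.67 to 2.16 CPM in KO (0.45, edgeR adjusted p = 0.879). Gabra6, the alpha 6 subunit of cerebellar granule cells, had 182 counts in WT replicate 2, against 0 to 22 counts in the other 11 libraries.

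Among 22 scaffolds and trafficking partners of the receptor, edgeR called 1 higher and 0 lower in KO (0.144% and 0.346% of all tested genes). At an unadjusted p below 0.05, 1 was higher and 4 lower in KO, against 7.92% and 9.71% of all tested genes. In MUT against WT 1 was higher and 4 lower, against 4.85% and 6.01%. The median in KO was -0.05. Gabarap was the called gene. This ubiquitin-like protein was first found by its binding to the gamma 2 subunit and is now known mainly for its part in autophagy. It measured 110.5, 107, 99.2 and 103 CPM in KO, against 90.3, 91.9, 88.1 and 88.9 CPM in WT. Every KO library was above every WT library (log2 fold change 0.23, SE 0.04, edgeR adjusted p = 0.0451), and the call held in 10 of 29 other settings, with values of 0.16 to 0.28. It ended without KO replicate 1, 2, 3 or 4, without MUT replicate 2, 3 or 4 and without WT replicate 2, 3 or 4. In MUT it had 107, 98.4, 100.05 and 99.2 CPM, also above every WT library (0.19, edgeR adjusted p = 0.360). Higher than WT without overlap were 4.29% of all tested genes in KO and 3.38% in MUT. Dag1, dystroglycan of inhibitory synapses on pyramidal cells, was at 80.3 to 88.1 CPM in KO, 81.5 to 89.6 CPM in MUT and 93.8 to 98.5 CPM in WT. Neither null group overlapped WT, with -0.20 in KO (edgeR adjusted p = 0.0749) and -0.15 in MUT (edgeR adjusted p = 0.395). Lower than WT without overlap were 4.82% of all tested genes in KO and 3.71% in MUT. In MUT against KO the smallest p values of this list were those of Nsf, which recycles membrane fusion complexes (0.08, edgeR adjusted p = 0.879), and Slitrk3, an adhesion protein of inhibitory synapses (0.13, edgeR adjusted p = 0.884).

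None of the 9 genes of GABA synthesis, transport and breakdown was called by edgeR. At an unadjusted p below 0.05, 3 were lower in KO against WT, where 9.71% of all tested genes were. In MUT, 1 was lower against WT (6.01%) and 2 were higher against KO (3.57%). All 9 were below 0 in KO against WT, with a median of -0.21, against 0.0050 over all tested genes. Abat, the enzyme that breaks down GABA, was at -0.21 in KO (edgeR adjusted p = 0.246) and -0.20 in MUT (edgeR adjusted p = 0.466). Its highest library was WT replicate 4 (339 CPM), which also had the highest striatal level (2.33). The part of that tissue in these genes was not tested. In MUT against KO, Slc6a12 (1.28, edgeR adjusted p = 0.725) and Slc6a13 (0.98, edgeR adjusted p = 0.852) were higher in MUT with no overlap. The same held for 3.37% of all tested genes. Both are GABA transporters that, within the brain, are found mainly in the meninges. Slc6a12 was near the floor, at 0.367 to 0.610 CPM in KO and 0.688 to 1.69 CPM in MUT (10 counts are 0.481 to 0.610 CPM).

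The 8 genes of GABA-B receptors and chloride transport gave no edgeR call either. At an unadjusted p below 0.05, 2 were lower in KO and 1 in MUT against WT, against 9.71% and 6.01% of all tested genes. In MUT against KO there were 0, against 5.69% of all tested genes in either direction. Slc12a5, the chloride extruder KCC2 of mature neurons, had 854, 892, 852 and 907 CPM in KO and 881, 887, 857 and 849 CPM in MUT, against 929, 986, 1080.1 and 939 CPM in WT. Both null groups lay below every WT library, at -0.16 in KO (edgeR adjusted p = 0.137) and -0.17 in MUT (edgeR adjusted p = 0.395). Of all tested genes, 4.82% were lower than WT without overlap in KO and 3.71% in MUT. Gabbr2, a GABA-B receptor subunit, was at -0.23 in KO (edgeR adjusted p = 0.169) and -0.19 in MUT (edgeR adjusted p = 0.464). In MUT against KO the smallest p values were those of Kctd16 (0.24, edgeR adjusted p = 0.972) and Kctd12 (0.17, edgeR adjusted p = 0.988), auxiliary subunits of GABA-B receptors.

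No marker of cortical inhibitory or excitatory neurons was called by edgeR in any comparison. At an unadjusted p below 0.05, 2 inhibitory and 3 excitatory genes were lower in KO against WT, where 9.71% of all tested genes were, 1 and 1 were lower in MUT against WT (6.01%), and 2 and 1 were higher in MUT against KO (3.57%). Inhibitory neuron genes (16 tested) had a list level of -0.11 to 0.02 in KO, -0.05 to 0.13 in MUT and -0.06 to 0.05 in WT, with a median log2 fold change of -0.11 in KO and -0.03 in MUT against WT. Excitatory neuron genes (14 tested) had levels of -0.08 to 0.06 in KO, -0.14 to 0.05 in MUT and -0.05 to 0.19 in WT, with medians of -0.13 in KO and -0.14 in MUT. Tbr1, a transcription factor of deep-layer cortical neurons, was at 131 to 160.3 CPM in KO, 127 to 142 CPM in MUT and 152 to 171 CPM in WT. Its log2 fold change was -0.17 in KO (edgeR adjusted p = 0.237, overlapping) and -0.25 in MUT (edgeR adjusted p = 0.392, not overlapping). Lower than WT without overlap in MUT were 3.71% of all tested genes.

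Myelinating oligodendrocyte genes were higher in KO, without a call by edgeR. Of 12, all had a log2 fold change above 0 against WT, 9 of them at an unadjusted p below 0.05, where 7.92% of all tested genes were higher, and the median was 0.29. Their summed level was 4617 to 5509 CPM in KO, 4007 to 4777 CPM in MUT and 3342 to 4719 CPM in WT. Mbp, myelin basic protein, was at 2292 to 2776 CPM in KO and 1635 to 2226 CPM in WT, with no overlap (0.39, edgeR adjusted p = 0.0858). It was the only 1 of the 12 whose KO and WT libraries did not overlap. Of all tested genes, 4.29% were higher in KO without overlap. In MUT against WT 11 of the 12 were above 0, with a median of 0.14. At an unadjusted p below 0.05, 1 of them was higher, against 4.85% of all tested genes. Of 10 microglia genes 1 was called higher in KO, where 0.144% of all tested genes were. It was C1qa of the complement system (0.29, edgeR adjusted p = 0.0498), named after its values were seen. Of the 10, 6 were above 0 and 4 below in KO against WT, and the median of the list was 0.05. The astrocyte list had a median of -0.04 in KO. The part of these cell types in the subunit differences was not tested; for striatal and hippocampal tissue the fits with those levels are given above.

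The genes with the profiles most like each member were found by the smallest root mean square difference of centred log2 CPM over the 12 libraries, as a description with no test. For Gabrb2 these were Snx13 (0.051), Kitl (0.054) and Eif5a2 (0.062), and 130 genes lay within 0.1. For Gabra3 they were Cdk5r1 (0.048), Kctd1 (0.060) and Slc36a1 (0.063), and for Gabra4 Pmepa1 (0.053) and Myh10 (0.053). For Gabrd they were Chrdl1 (0.078), Siae (0.082) and Rgs4 (0.088), for Gabra5 Slit1 (0.088), Ksr1 (0.105) and Tmem28 (0.117), and for Gabrb1 Ikzf4 (0.079), Lins1 (0.087) and Nlgn3 (0.096). Gabra2 had no gene within 0.1, and its nearest were Fgf11 (0.160), Lrrc42 (0.162) and Apaf1 (0.169).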

How the data were processed

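Per the labels' protocols, directional RNA libraries were prepared from cortex (NEBNext Ultra II). What the authors deposited is 1 table of raw counts per gene, laid out as featureCounts does, with another column holding summed exon length in bases. The submitters' processing notes name mm10, R 4.1.2 and DESeq2 1.34.0. The aligner is not given in the sources used here, nor are the counter and its strand mode. No pair of the 66 library pairs agreed within sampling noise (lowest chi-square per degree of freedom 3.46).

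Genes were filtered with edgeR's filterByExpr (minimum count 10, minimum total 15), scaled by TMM on full library totals (10 counts are 0.481 to 0.610 CPM) and tested in 1 quasi-likelihood model of all 12 libraries, with terms for group and labelled sex, using edgeR 4.0.16 under R 4.3.3 (robust prior, 8 residual degrees of freedom), with Benjamini-Hochberg adjustment over 15298 genes at 0.05. Intervals are 95%. List levels and profiles use log2 CPM with prior count 2, centred per gene. Named genes are the 7 subunits in every library, Grn, up to 4 called members of each GABA list and otherwise the 2 with the smallest p, 3 genes with the most similar profile per member, and a defining marker of tissues that stand apart. Some genes that this rule names are not reported here. Alternatives were other scalings, filters, tools (DESeq2 1.42.0, limma-voom of limma 3.58.1), covariates, a replicate block, a length trend (spline, 4 degrees of freedom), subsets and each library left out; 2 were added after seeing the data (no robust prior; the hippocampal level as a term). The members and lists were chosen with earlier results of these data known.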

Additional observations from a re-analysis of the deposited data

Results flagged for a closer look

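In 6 cases a value lay far from the other 3 libraries of its group, judged by the gap to the nearest library over the group's range (above Dixon's 95% critical value), among 63 groups examined; chance gives about 1 in 20. Gabra3 in KO replicate 3 measured 123 CPM, against 144 to 145 CPM in the other KO libraries. Gabra5 in KO replicate 1 measured 98.0 CPM, against 68.5 to 71.3 CPM. Gabra6 in WT replicate 2 measured 10.1 CPM, against 0 to 0.346 CPM in the other WT libraries. The level of the scaffold and trafficking list in KO replicate 3 was -0.0999, against 0.00665 to 0.0259. The thalamic neuron list level was 0.358 in MUT replicate 1, against -0.0658 to -0.0435, and the choroid plexus list level was 3.51 in KO replicate 3, against -1.51 to -0.903. In KO against WT, Gabra3 was at -0.18 without KO replicate 3 and Gabra5 at 0.066 without KO replicate 1.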

How the results depend on the processing

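The settings changed how many subunits passed in KO against WT (1 as reported): 3 with DESeq2 and among libraries labelled male, and 0 with age, the striatal or the hippocampal level as a term, with the replicate block, with the length trend removed, labelled female, under 310 days and without libraries high in Ttr. Leaving out 1 library gave 0 to 4. All genes past the threshold numbered 75 as reported, 647 with DESeq2, 294 with no sex term, 1163 labelled male, 15 with the length trend removed, 11 under 310 days, 2 with age, with the replicate block, labelled female and without libraries high in Ttr, and 1 with the striatal or hippocampal level. Leaving out 1 library gave 1 to 1619 genes, the highest without WT replicate 1. In MUT against WT 1 subunit passed labelled male, and 0 to 3 with 1 library left out. All genes there numbered 2 as reported, 52 with DESeq2, 6 with no sex term, 311 labelled male and 2 to 1030 with 1 library left out. In MUT against KO no subunit passed in any of the 29 settings. All genes there numbered 1 as reported, 15 with DESeq2, 2 with age and labelled male, 37 under 310 days, 3 with the hippocampal level and 1 to 18 with 1 library left out. Labelled male leaves 1 MUT library, and labelled female and under 310 days leave 1 WT library, so each lone library is assumed to vary like the other groups. The causes were not tested.

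Signs turned as follows (log2 fold change). With age as a term, KO against WT gave Gabra5 -0.26 and Gabrd 0.219, and MUT against WT gave Gabra2 -0.003, Gabra5 -0.064 and Gabrd 0.091. With the striatal level, KO against WT gave Gabra5 -0.147 and Gabrd 0.042, and MUT against WT gave Gabra2 -0.036, Gabra5 -0.015 and Gabrb1 -0.015. With the hippocampal level, KO against WT gave Gabra5 -0.289 and Gabrd 0.123, and MUT against WT gave Gabra2 -0.166, Gabra5 -0.206, Gabrb1 -0.041 and Gabrd 0.094. Labelled female, KO against WT gave Gabra5 -0.297 and Gabrd 0.289, MUT against WT gave Gabra2 -0.091, Gabra5 -0.258, Gabrb1 -0.067 and Gabrd 0.193, and MUT against KO gave Gabra3 0.009 and Gabarap 0.009. Under 310 days, KO against WT gave Gabra5 -0.385 and Gabrd 0.294, and MUT against WT gave Gabra2 -0.067, Gabra5 -0.20, Gabrb1 -0.034 and Gabrd 0.187. MUT against WT gave Gabra2 -0.029 with no sex term, and MUT against KO gave Gabra4 0.012 without libraries high in Ttr and Gabarap 0.003 with the length trend removed. With 1 library left out, Gabrb1 in KO against WT ran from -0.098 to 0.029, Gabra2 and Gabrb1 in MUT against WT from -0.052 to 0.105 and from -0.016 to 0.198, and in MUT against KO Gabra3 from -0.101 to 0.023, Gabra4 from -0.078 to 0.025, Gabra5 from -0.135 to 0.244 and Gabrd from -0.124 to 0.057.

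Replicate numbers did not pair the libraries: over 12 same-numbered pairs, deviations from the group means correlated at -0.377 to 0.289, with 1 pair above 0.1. With the replicate block Gabrb2 was at -0.351 in KO against WT (edgeR adjusted p = 0.10). Counts per library were lowest for Gabrb1, at 282 to 381.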
